A study of Mus musculus with 18 samples.

Results

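The posterior identity genes described here were 7 rows of the count tables, chosen by name: Hoxb1 and Hoxb2 of the Hoxb cluster, the caudal-type genes Cdx1, Cdx2 and Cdx4, the homeobox gene Gbx2, and Nkx1-2, a homeobox gene of the caudal epiblast. They are 7 of 22997 nuclear genes counted. Their transcripts were followed from embryonic day 6.75 (E6.75) to E7.5 of mouse gastrulation, and at each age between cells in which transcripts of T, Mesp1, Foxa2 or Sox2 were or were not detected.

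During gastrulation, cells leave the epiblast through the primitive streak, and the trunk and tail are laid down from the posterior end of the embryo. CDX transcription factors act there downstream of WNT and FGF signals and switch on Hox genes, which are activated one after another along each cluster and give cells their position along the head-to-tail axis. T (Brachyury) marks the streak and nascent mesoderm, Mesp1 early mesoderm, Foxa2 the anterior streak, endoderm and node, and Sox2 the pluripotent epiblast and later neural tissue, while cells holding both T and Sox2 in the caudal epiblast include precursors of spinal cord and trunk mesoderm.

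Both ages came from wild-type C57BL/6 embryos. At E6.75 the extraembryonic part was removed, each embryo was dissociated on its own, and cells were picked by hand for CEL-Seq2, a 3′-end method with molecular identifiers. At E7.5 embryos were cut beneath the chorion, which keeps extraembryonic mesoderm, those of 1 or 2 litters were pooled, and cells were sorted for mCEL-Seq2, the miniaturised form. Age, way of collecting cells, tissue cut and protocol therefore changed together and cannot be told apart in any comparison of the ages.

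The series states 576 and 1172 cells, the barcodes of the used sets number 576 and 1152, and 543 cells at E6.75 and 429 at E7.5 held at least 2000 nuclear transcripts and were kept. They came from 6 E6.75 libraries of 85 to 96 kept cells and 11 E7.5 libraries of 15 to 71. E7.5 replicate 5 held 3041 nuclear transcripts in all and no kept cell, so it enters no comparison. The median depth of kept cells was 22319 to 54620 transcripts over the E6.75 libraries and 18959 to 57070 over the E7.5 libraries. Libraries of one age reused plate barcodes (2 sets of 96 served all 11 E7.5 libraries), so a barcode names a cell only within its library. T stood apart in the E6.75 replicates 2_13 and 2_14, at 160 and 159 transcripts per 1000000 nuclear transcripts (CPM), against 18.4 to 28.1 in the other E6.75 libraries. The labels do not say that libraries came from separate embryos, so p-values measure the spread between libraries, which may be technical.

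In the reference annotation of the mouse genome GRCm38, which may differ from the submitters' build, Hoxb1 (chromosome 11, 96365752 to 96368256, plus strand) lies 11739 bases beyond the end of Hoxb2 (chromosome 11, 96350525 to 96354012, plus strand). Cdx2 lies on chromosome 5 (147300805 to 147307270, minus strand) and Cdx4 on the X chromosome (103321398 to 103330592, plus strand). Gbx2 lies on chromosome 1 (89927956 to 89931179, minus strand) and Nkx1-2 on chromosome 7 (132594878 to 132599637, minus strand). Hoxb2 overlaps Hoxb3os, Gbx2 overlaps D130058E05Rik and Nkx1-2 overlaps Gm16764 on the opposite strand, and Nkx1-2 also overlaps Fgfr2 on its own strand. Whether counting used strand is not given in the sources used here, so reads of these overlapping pairs cannot be told apart and the values of Hoxb2, Gbx2 and Nkx1-2 are uncertain in that respect.

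RefSeq promoter sequences (GRCm38.p6) were found for 5 of the 7 genes, and the 250 bases before each start were searched on both strands for 5 short words. The HOX and PBX word TGATNNAT occurred before Hoxb1, 162 bases from the start, and in 7.68% of 32851 promoters of the same length. The octamer ATGCAAAT, a word bound by POU factors and chosen only after the sequences had been read, occurred before Cdx2 (147 bases from the start) and Cdx4 (93 bases) and in 1.60% of promoters. Those 3 windows are printed 5′ to 3′ on the gene's strand because they are the ones holding these words, which stand in capitals (Hoxb1 chr11:96365508-96365757, Cdx2 chr5:147307250-147307499, Cdx4 chrX:103321148-103321397).
Hoxb1: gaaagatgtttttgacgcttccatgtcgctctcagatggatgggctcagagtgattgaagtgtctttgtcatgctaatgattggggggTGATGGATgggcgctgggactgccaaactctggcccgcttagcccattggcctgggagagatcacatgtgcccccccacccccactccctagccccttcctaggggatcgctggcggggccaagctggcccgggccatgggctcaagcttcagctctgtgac
Cdx2: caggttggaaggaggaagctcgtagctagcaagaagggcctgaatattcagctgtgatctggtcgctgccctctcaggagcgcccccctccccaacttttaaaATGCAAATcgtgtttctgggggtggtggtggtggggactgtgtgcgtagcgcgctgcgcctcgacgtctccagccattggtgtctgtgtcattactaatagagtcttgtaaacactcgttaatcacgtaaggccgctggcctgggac
Cdx4: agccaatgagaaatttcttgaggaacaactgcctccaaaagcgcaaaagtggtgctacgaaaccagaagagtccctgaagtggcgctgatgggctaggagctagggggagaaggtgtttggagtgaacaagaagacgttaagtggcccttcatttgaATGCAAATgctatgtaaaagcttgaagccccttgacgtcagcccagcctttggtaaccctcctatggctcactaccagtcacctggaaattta
The T-box core AGGTGT occurred before Cdx4, 139 bases from the start, and in 11.8% of promoters. Neither the CDX core TTTAT (37.3% of promoters) nor the LEF and TCF word CTTTGA (13.8%) occurred before any of the 5. A match describes letters in a window and shows no binding, and its absence says nothing of the factor.

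The 5 posterior genes that could be tested were all higher in E7.5 than in E6.75 libraries, and the largest difference among them was that of Hoxb1. A gene was tested if it passed a filter on low counts in enough libraries, and these 5 passed through their E7.5 levels. Their shared direction was therefore largely set by the filter. Hoxb1, the most 3′ gene of its cluster and among the first Hox genes to be switched on in the streak, was read at 0 to 3.28 CPM in the 6 E6.75 libraries (median 0.66, mean 1.01 ± 1.25 SD) and at 53.2 to 305 CPM in the 11 E7.5 libraries (median 125, mean 152 ± 81.2 SD). The ranges were far apart, with 11 of 11 E7.5 libraries above the highest E6.75 library. Its log2 fold change was 6.92 ± 0.48 (SE; adjusted p = 3.29e-09, edgeR quasi-likelihood test with Benjamini-Hochberg adjustment over 9998 genes). Of the 29 Hoxb1 transcripts at E6.75, 18 came from replicate 2_13, one of the libraries high in T.

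Nkx1-2, a homeobox gene that marks the caudal epiblast, followed the same order. It was read at 0.29 to 1.37 CPM at E6.75 (median 1.12, mean 0.96 ± 0.45) and 12.7 to 160 CPM at E7.5 (median 53.1, mean 65.2 ± 47.0), with a log2 fold change of 6.03 ± 0.56 (adjusted p = 5.52e-08). Gbx2, later needed to position the hindbrain against the midbrain, was read at 0.28 to 2.06 CPM (median 0.95, mean 1.11 ± 0.73) and 8.88 to 109 CPM (median 51.8, mean 51.6 ± 37.4), with a log2 fold change of 5.55 ± 0.57 (adjusted p = 2.33e-07). Neither gene's ranges overlapped between the ages.

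The Cdx genes encode caudal-type homeodomain activators of Hox genes, and their levels overlapped between the ages. Cdx1 was read at 0 to 2.00 CPM at E6.75 (median 0.10, mean 0.41 ± 0.79) and 0 to 44.0 CPM at E7.5 (median 6.69, mean 15.0 ± 15.2), with 10 of 11 E7.5 libraries above the highest E6.75 library and a log2 fold change of 4.84 ± 0.76 (adjusted p = 4.13e-05). Cdx1 lies on chromosome 18 (61018862 to 61036199, minus strand). Its E6.75 level rested on replicate 2_13, which held 11 of the 13 Cdx1 transcripts. Cdx2, which also acts in the trophoblast and extraembryonic ectoderm, was read at 0.33 to 9.59 CPM (median 2.56, mean 3.54 ± 3.34) and 4.83 to 49.0 CPM (median 25.4, mean 24.4 ± 13.02), with 9 of 11 E7.5 libraries above and a log2 fold change of 2.79 ± 0.44 (adjusted p = 4.06e-05). Cdx4, the X-linked member of the family, had 1 transcript in 1 E6.75 cell of replicate 1_11 against 86 transcripts in 25 E7.5 cells. Its E7.5 level ran from 0 in 3 libraries to 26.6 CPM (median 2.43), and the ratio of pooled levels was 149, with a counting interval of 26.0 to 5946 that covers counting error only. Cdx4 and Hoxb2 failed the filter on low counts. With no filter Cdx4 passed (log2 fold change 5.77, adjusted p = 1.51e-05) and Hoxb2 did not (1.15, adjusted p = 0.327). Standard errors were smaller with no filter (Cdx2 0.38 in place of 0.44), so these p-values are not comparable with the filtered ones.

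A count of 5 of 7 genes higher at E7.5 stands beside 20.0% of the 9998 genes tested, over which the median log2 fold change was 0.03. The filter let these 5 in through their E7.5 levels, so the count adds nothing to the levels themselves. Several marker lists moved with age. Visceral endoderm markers summed to 136 to 910 CPM over the E6.75 libraries and 2.05 to 358 CPM at E7.5, and epiblast and ectoderm markers to 5025 to 6110 and 1158 to 3533 CPM. Paraxial mesoderm markers went the other way without overlap, at 13.9 to 28.6 and 69.8 to 243 CPM. So did the medians of lateral and extraembryonic mesoderm markers (26.1 and 262 CPM) and of blood and endothelium markers (14.3 and 89.0 CPM). Of these 5 lists, Msgn1 at E6.75 was the single marker at 0. The mitochondrial share of transcripts ranged from 13.7 to 18.7% over the E6.75 libraries and from 9.09 to 14.4% over the E7.5 libraries. The part of any of these in the differences was not tested. In summed counts, fewer cells of a type and less RNA per cell cannot be told apart.

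**Figure D1:**
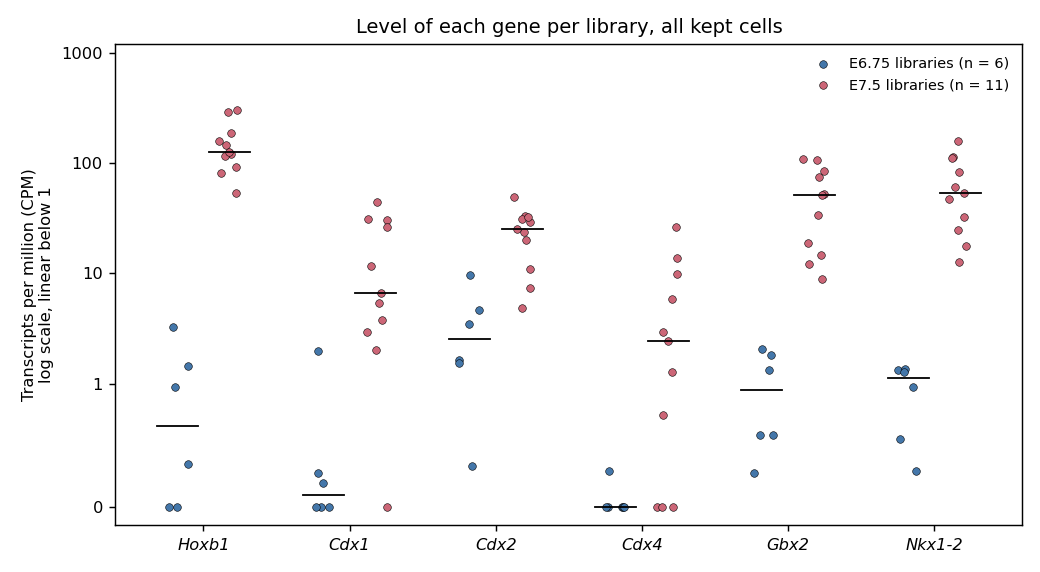
Level of each posterior gene (CPM, on a log axis that is linear below 1) except Hoxb2, in each of 6 E6.75 (blue) and 11 E7.5 (red) libraries, with 1 point per library and a bar at the median. Hoxb1, Gbx2 and Nkx1-2 do not overlap between the ages, while the Cdx genes do.

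Hoxb2, the 5′ neighbour of Hoxb1 that later acts in the hindbrain, was read as 0 transcripts in 543 E6.75 cells, which allows a share of up to 0.552% of cells with a transcript, and as 1 transcript in 429 E7.5 cells. That single cell, of replicate 7, also held Hoxb1, Cdx2, Gbx2, Nkx1-2, T and Mesp1. Hoxb3os, the antisense gene that overlaps Hoxb2, held 1 transcript at E6.75 and 50 transcripts in 35 cells at E7.5. Hoxb1 was found in 222 of the same 429 E7.5 cells.

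Most Cdx2 at E6.75 was read in cells with extraembryonic markers. Of 78 transcripts, 55 lay in 14 cells with extraembryonic ectoderm markers, 10 of which held Cdx2 (71.4%, 95% exact binomial interval 41.9 to 91.6%, for counting error only). Such a cell held at least 3 of 6 listed markers, which do not include Cdx2, and a visceral endoderm marker cell at least 5 of 10. Another 6 transcripts lay in 5 of 56 cells with visceral endoderm markers (8.93%), and 17 in 11 of the 475 cells with neither (2.32%). Without the cells of both marker classes, Cdx2 was read at 0.35 to 1.69 CPM at E6.75 (mean 0.70 ± 0.52, n = 6), and the log2 fold change between the ages became 4.80 in place of 2.79. Gbx2 was also found in 4 of the 14 extraembryonic ectoderm marker cells (28.6%, interval 8.39 to 58.1%). Hoxb1, Cdx1, Cdx4 and Nkx1-2 were not detected in those 14 cells (0 allows up to 21.4%). Hoxb1, Cdx1, Cdx4 and Gbx2 were not detected in the 56 visceral endoderm marker cells (0 allows up to 5.36%, median depth 25928), and Nkx1-2 was found in 1 of them. In the 475 cells with neither marker class (median depth 41984), Hoxb1 was found in 14 cells (2.95%), Gbx2 in 22 (4.63%), Nkx1-2 in 20 (4.21%) and Cdx1 in 8 (1.68%). Except for Cdx2 these shares lay above those of the visceral endoderm marker cells, but not beyond counting error in 56 cells.

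The E6.75 cells that held Hoxb1 or Cdx1 mostly held T as well. T was detected in 10 of 14 Hoxb1 cells and 7 of 8 Cdx1 cells, and in 156 of all 543 cells. Mesp1 was detected in 7 and 5 of them, and Sox2 in 12 and 5. T was found in 8 of 21 Nkx1-2 cells, Mesp1 in none of the 21, and T in 13 of 26 Gbx2 cells. Every E6.75 Gbx2 cell held a single transcript, while Hoxb1 reached 6 and Cdx2 12 transcripts in a cell. None of the 7 genes passed the filter on low counts for a comparison between marker classes at E6.75. Hoxb1 had 21 transcripts in cells with T and 8 in cells without. With no filter, edgeR with library as a block called neither Hoxb1 (1.57, adjusted p = 0.727) nor Cdx1 (2.65, adjusted p = 0.702) by T. Most transcripts of both genes came from replicate 2_13, a library high in T. Median depth was 61820 in Hoxb1 cells and 73865 in Cdx1 cells, against 38985 and 38924 in other cells. Cells with T were deeper too (54649 against 30374), and the part of depth was not tested.

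The difference between the ages was also read within T classes. Among cells with T, 4 of 7 genes could be tested and were higher at E7.5, beside 16.3% of genes tested. The filter on low counts largely set that direction, since these 4 genes passed it through their E7.5 levels. Their log2 fold changes were 6.46 ± 0.52 for Hoxb1 (adjusted p = 2.3e-08), 3.45 ± 0.46 for Cdx2 (adjusted p = 6.97e-06), 5.38 ± 0.64 for Gbx2 (adjusted p = 2.27e-06) and 6.13 ± 0.66 for Nkx1-2 (adjusted p = 5.93e-07). Among cells without T, Hoxb1 alone passed the filter and was higher by 5.99 ± 0.57 (adjusted p = 4.22e-08), beside 14.3% of genes tested. The Hoxb1 difference was thus read on either side of the T class, but Hoxb1 entered both tests through its E7.5 levels. At E6.75 Hoxb1 reached at most 4.92 CPM in cells with T and 1.42 CPM in cells without.

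Shares of cells were compared after thinning each cell to 2000 transcripts. The mean share of cells with Hoxb1 was 0.349% at E6.75 and 19.3% at E7.5 (exact permutation test over 12376 splits of 17 libraries, two-sided, adjusted p over the 7 genes = 0.00283), and that of Nkx1-2 was 0 and 10.6% (exact permutation, adjusted p = 0.00424). Both were higher in 11 of 11 E7.5 libraries than in any E6.75 library. Both calls ended where a cell had to hold at least 2 transcripts of the gene, with differences of 9.90 percentage points for Hoxb1 (exact permutation, adjusted p = 0.0973) and 3.02 for Nkx1-2 (0.115). The thinned shares of Cdx2 were 1.12% and 5.74% and those of Gbx2 0.174% and 6.88% (exact permutation, adjusted p = 0.0553 for each), so neither passed. Cdx2 passed without E7.5 replicate 6, 8 or 11 (adjusted p = 0.0274 by the exact permutation test), and Gbx2 without replicate 8, 9, 10 or 11 (0.0339 to 0.0452). Cdx1 and Cdx4 were in no thinned E6.75 cell and in a mean of 2.13% and 1.48% of E7.5 cells, which did not pass (exact permutation, adjusted p = 0.081). Unthinned mean shares at the 2 ages were 2.49% and 49.4% for Hoxb1, 3.86% and 35.6% for Nkx1-2, 4.78% and 36.4% for Gbx2, 4.78% and 26.6% for Cdx2, 1.40% and 13.5% for Cdx1, and 0.187% and 5.03% for Cdx4.

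At E7.5, cells in which T was detected held more Hoxb1, Nkx1-2 and Gbx2 than cells of the same library without T. In cells with T, Hoxb1 was read at 54.7 to 349 CPM over 11 libraries (median 161, mean 210 ± 107 SD), and in cells without T at 0 to 92.5 CPM (median 29.3, mean 36.5 ± 30.6). It was higher with T in the 10 libraries whose order could be read, although the ranges of the classes overlapped. In replicate 9 the 3 cells without T held 13025 transcripts and none of these genes, and 0 there allows up to 230 CPM. Its log2 fold change was 2.44 ± 0.25 (adjusted p = 3.75e-07, edgeR with library as a block). Nkx1-2 was read at a mean of 81.1 ± 54.9 CPM with T and 22.6 ± 22.6 without, was higher in 8 of those 10 libraries, and differed by 1.97 ± 0.30 (adjusted p = 0.000114). Gbx2 was read at 61.3 ± 43.1 and 24.2 ± 19.7 CPM, was higher in 9 of the 10, and differed by 1.31 ± 0.24 (adjusted p = 0.00131), a call that was lost without library as a block (1.22, adjusted p = 0.201). These are 3 of 7 genes, beside 1.35% of genes tested. Cells with T were deeper, with a median of 34101 transcripts against 22258 in cells without, and the part of depth in these differences was not tested.

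The Cdx genes failed the filter on low counts in that comparison, and their counts are given as they stand. Cdx1 had 267 transcripts in cells with T and 10 in cells without, was higher with T in 6 of the 7 libraries whose order could be read, and was found in 67 of 283 cells against 4 of 146. The ratio of pooled levels was 9.85 (counting interval 5.27 to 20.8). Cdx2 had 312 and 44 transcripts and was higher in 6 of 8 such libraries. Cdx4 had 84 and 2 transcripts and was higher in 3 of 3 such libraries, with a ratio of 15.5 (counting interval 4.16 to 130). With no filter, the edgeR log2 fold change was 3.46 for Cdx1 (adjusted p = 1.41e-13), 1.36 for Cdx2 (adjusted p = 9.7e-05) and 2.55 for Cdx4 (adjusted p = 0.0445). The standard error of Hoxb1 in the unfiltered fit was 0.145, smaller than in the filtered fit given above. These p-values are therefore not comparable with the filtered ones. Marker lists moved with T as well. Paraxial mesoderm markers summed to 71.3 to 549 CPM over libraries in cells with T and 13.9 to 154 CPM in cells without, and node and notochord markers to 6.12 to 129 and 0 to 58.7 CPM. Epiblast and ectoderm markers were at 565 to 3257 CPM with T and 1554 to 4789 CPM without. Lateral and extraembryonic mesoderm markers had a median of 194 CPM with T (54.5 to 603) and 357 CPM without (21.9 to 558). All markers of these lists were above 0 with T, Msgn1 and Noto were at 0 without T, and their part in the result was not tested.

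**Figure D2:**
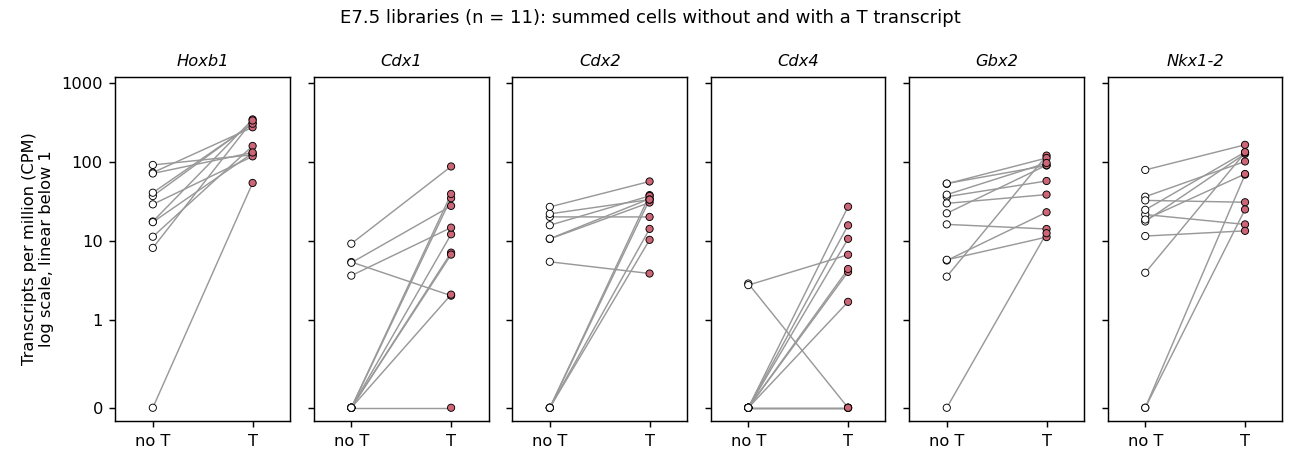
Level (CPM, on a log axis that is linear below 1) of each posterior gene except Hoxb2 in the summed E7.5 cells without and with T, with a line joining the classes of each of 11 libraries. The Hoxb1 line goes up towards cells with T in 11 of 11 libraries, the Nkx1-2 line in 9 and the Gbx2 line in 10, counting replicate 9, whose point without T is a 0 from 3 cells.

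Hoxb1 was also higher in E7.5 cells in which Mesp1, the early mesoderm gene, was detected. It was read at 45.7 to 507 CPM in cells with Mesp1 (median 350, mean 302 ± 161, n = 11) and at 7.98 to 188 CPM in cells without (median 75.2, mean 90.2 ± 60.4). It was higher with Mesp1 in 10 of 11 libraries, with a log2 fold change of 2.00 ± 0.23 (adjusted p = 1.14e-06, edgeR), the 1 gene of 7 called, beside 3.12% of genes tested. Values for Cdx2 (0.58, adjusted p = 0.296), Gbx2 (0.27, adjusted p = 0.5684) and Nkx1-2 (-0.45, adjusted p = 0.391) did not pass. When a cell had to hold at least 2 Mesp1 transcripts, Nkx1-2 was lower with Mesp1, by a log2 fold change of -1.29 (adjusted p = 0.0143). Cdx4 had 73 transcripts in cells with Mesp1 and 13 in cells without, and with no filter on low counts its log2 fold change was 2.55 (adjusted p = 2.01e-05). The unfiltered fit gave Hoxb1 a standard error of 0.105 in place of 0.23, so its p-values are not comparable with the filtered ones.

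Sox2 ran the other way for Hoxb1. In the 10 libraries with both classes, Hoxb1 was read at a mean of 122 ± 81.2 CPM in cells with Sox2 and 229 ± 84.0 CPM in cells without. It was lower with Sox2 in 9 of 10 libraries, with a log2 fold change of -0.94 ± 0.20 (adjusted p = 0.00286, edgeR), again 1 gene of 7, beside 3.97% of genes tested. The call was lost without library as a block (-0.87, adjusted p = 0.0794), and the difference was -2.13 (adjusted p = 2.05e-05) where at least 2 Sox2 transcripts were required. Gbx2 lay on the other side at 0.77 (adjusted p = 0.0652), as did Nkx1-2 at 0.68 (adjusted p = 0.14), and neither passed. Gbx2 passed without replicate 4 (0.97, adjusted p = 0.0145) or replicate 11 (0.87, adjusted p = 0.017), and Nkx1-2 passed without replicate 11 (0.87, adjusted p = 0.0151). With no filter on low counts both were called higher with Sox2, Gbx2 at 0.76 (adjusted p = 0.00027) and Nkx1-2 at 0.65 (adjusted p = 0.00116), and Cdx4 was called lower at -2.15 (adjusted p = 0.0107). The unfiltered fit gave Hoxb1 a standard error of 0.105 in place of 0.20 at the same log2 fold change. Its p-values are therefore not comparable with the filtered ones, in which Gbx2 and Nkx1-2 did not pass at like differences.

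Foxa2 gave no call among the posterior genes, but its class was small. Foxa2 was detected in 61 of 429 E7.5 cells, and in only 3 or 4 cells in each of replicates 3, 4, 6, 8 and 11. Of 7 genes 5 were tested over 9 libraries, and edgeR and DESeq2 each called 0, beside 2.62% of genes tested in either direction, with 1 of the 5 at an unadjusted p under 0.05. That gene was Cdx1, at a mean of 25.1 ± 22.5 CPM with Foxa2 (n = 9), a log2 fold change of 0.74 and an adjusted p of 0.366. Hoxb1 (-0.23, adjusted p = 0.752) and Nkx1-2 (0.28, adjusted p = 0.737) showed no difference beyond the spread. With at least 2 Foxa2 transcripts required, Hoxb1 was lower with Foxa2, at -1.43 (adjusted p = 0.0051).

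**Figure D3:**
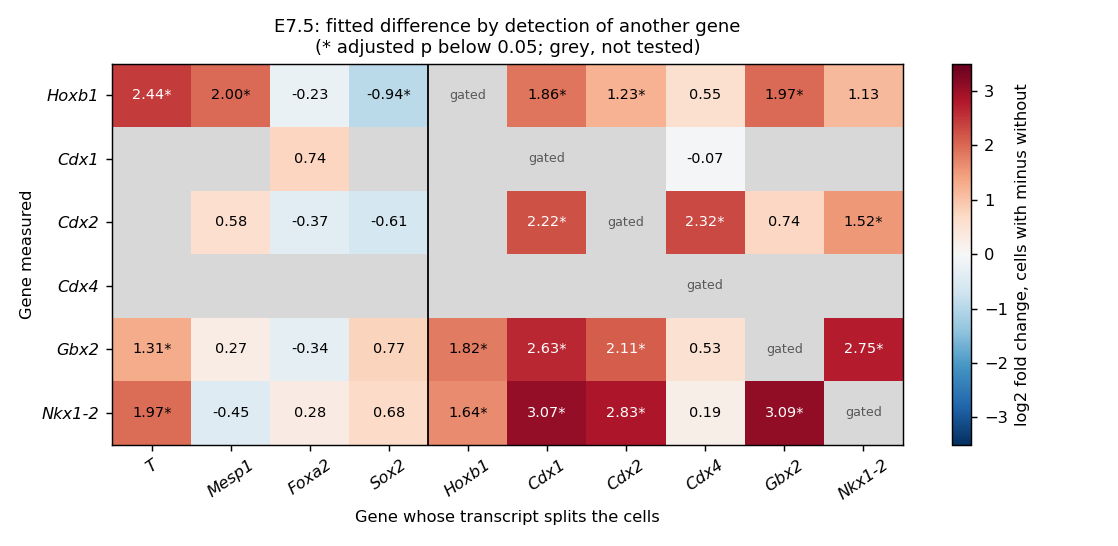
Fitted log2 fold change (colour and number) of each posterior gene, in rows, between E7.5 cells with and without a transcript of the gene named under each column, with asterisks for an adjusted p below 0.05 and grey for pairs that were not tested. Hoxb1 lies at 2.44 for T, 2.00 for Mesp1, -0.23 for Foxa2 and -0.94 for Sox2, and the columns to the right of the line split cells by the posterior genes themselves.

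Splitting E7.5 cells by T and Sox2 together gave 109 cells with both, 174 with T only, 84 with Sox2 only and 62 with neither. Hoxb1 was read at a mean of 188 ± 93.5 CPM in cells with both (8 libraries), 244 ± 102 with T only (11 libraries), 9.8 ± 4.1 with Sox2 only (7 libraries) and 101 ± 120 with neither (9 libraries). The difference between cells with both and cells with Sox2 only was 4.95 ± 0.41 on the log2 scale (adjusted p = 9.13e-08, edgeR over the 4 libraries holding the classes), the 1 gene of 7 called, beside 0.544% of genes tested. Nkx1-2 (2.29, adjusted p = 0.173), Cdx2 (1.80, adjusted p = 0.556) and Gbx2 (1.16, adjusted p = 0.699) had unadjusted p-values under 0.05 and did not pass.

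Highest mean levels of Nkx1-2, Gbx2 and Cdx1 were those of the cells with both T and Sox2. Nkx1-2 was read there at 119.6 ± 87.9 CPM, against 59.8 ± 38.2 with T only, 30.3 ± 35.0 with Sox2 only and 16.2 ± 27.4 with neither. Each mean and SD is over the libraries of its own class, as for Hoxb1, so these means do not average the same libraries. For Gbx2 the levels were 92.1 ± 57.6, 42.6 ± 36.3, 38.1 ± 37.3 and 18.5 ± 26.8 CPM in the same order. Cdx1 was read at 38.5 ± 39.3 CPM with both, 12.01 ± 11.8 with T only, 0 in the 7 libraries with Sox2 only and 8.76 ± 17.8 with neither. The SDs are as large as many of the means, so single libraries carry much of each class. Cdx2 stood at 30.03 ± 19.7 CPM with both, 29.96 ± 24.6 with T only, 9.57 ± 11.5 with Sox2 only and 21.4 ± 26.6 with neither. Cdx4 was highest with T only, at 8.21 ± 9.60 CPM against 1.75 ± 2.25 with both. Between cells with both and cells with T only, however, edgeR and DESeq2 called 0 of the 4 genes tested, beside 0.0971% of genes tested in either direction, and 1 had an unadjusted p under 0.05 (Hoxb1, -0.54, adjusted p = 0.762). The Nkx1-2 difference was 1.30 (adjusted p = 0.82), so the order of these neighbouring classes was not larger than the spread between libraries.

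Shares of cells gave a like picture, here pooled over libraries. Cdx1 was detected in 30.3% of cells with both T and Sox2, 19.5% with T only and 6.5% with neither, and in 0 of 84 cells with Sox2 only, which allows up to 3.57%. Nkx1-2 was detected in 57.8, 42.5, 21.4 and 16.1% of cells with both, T only, Sox2 only and neither, and Hoxb1 in 59.6, 65.5, 22.6 and 38.7%. After thinning to 10000 transcripts, which left 100, 140, 65 and 34 cells, the Hoxb1 shares were 45.0, 57.1, 9.2 and 41.2%, and those of Nkx1-2 40.0, 32.1, 16.9 and 8.8%. Hoxb1 had its lowest share in cells with Sox2 only at either depth. The Nkx1-2 shares of cells with Sox2 only and with neither overlapped within counting error, and these pooled shares were not tested over libraries.

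**Figure D4:**
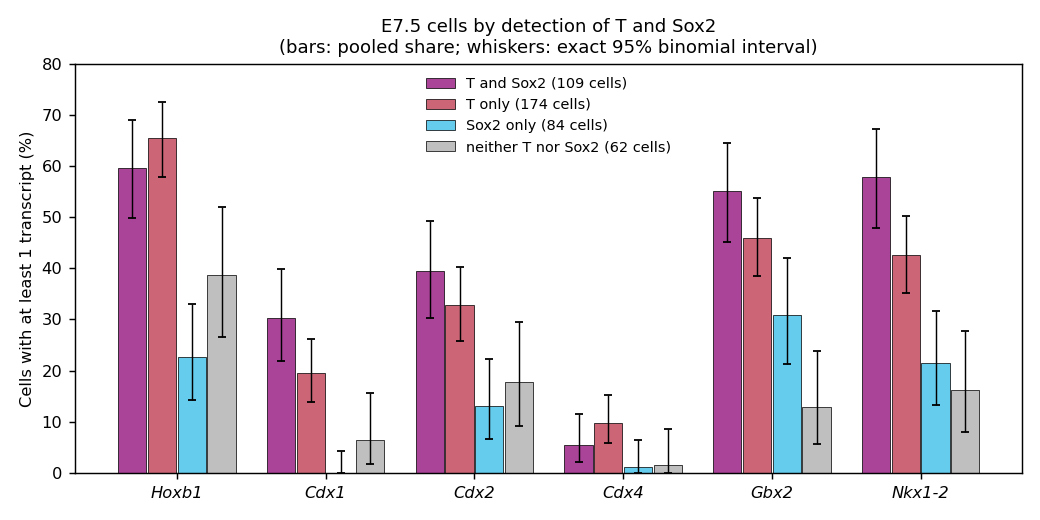
Percent of E7.5 cells holding at least 1 transcript of each posterior gene, by detection of T and Sox2, pooled over libraries, with 95% exact binomial intervals for counting error. Cdx1 is at 0 of 84 cells with Sox2 only and at 30.3% of cells with both.

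Several of the posterior genes were found together in the same E7.5 cells. At E6.75 a cell held none of the 7 in 465 cells, 1 in 63, 2 in 12 and 3 in 3. At E7.5 the numbers from none to 6 were 123, 104, 69, 48, 38, 40 and 7 cells, and no cell held all 7. T was detected in each of the 47 cells with 5 or more. After thinning to 10000 transcripts, 44.6% of cells with T (107 of 240) and 14.1% of cells without (14 of 99) held at least 2 of the genes, against 6 of 451 E6.75 cells.

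**Figure D5:**
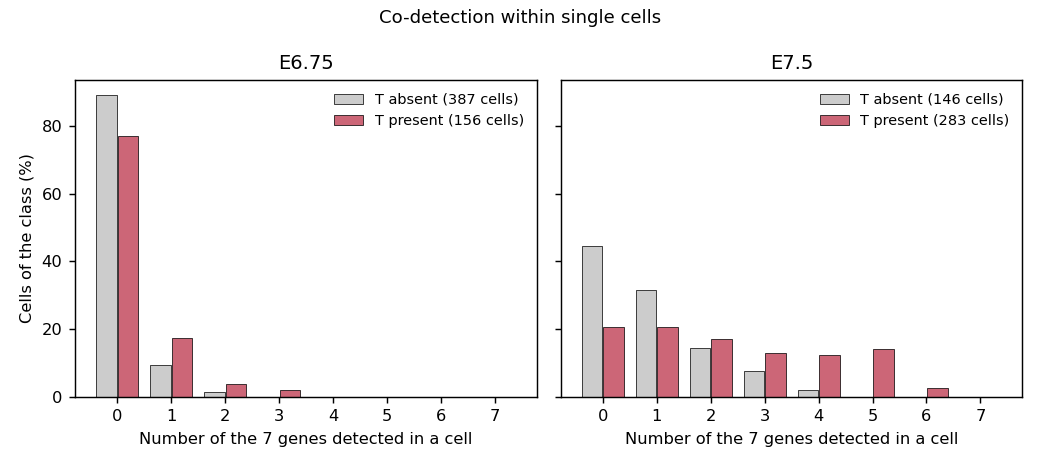
Percent of cells without T (grey) and with T (red) that held 0 to 7 of the posterior genes, at E6.75 and at E7.5, from all kept cells without thinning. E6.75 cells stop at 3 genes, and the E7.5 cells with 5 or 6 hold T.

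Cells of each library were then split by each posterior gene in turn. A gene low in 1 class could pass the filter on low counts through the other. Counts of genes higher among those tested were therefore partly set by the filter. In cells with Cdx1, all 4 of the other genes tested were higher over 6 libraries, beside 1.38% of genes tested: Nkx1-2 by 3.07 (adjusted p = 1.2e-07), Gbx2 by 2.63 (adjusted p = 1.09e-07), Cdx2 by 2.22 (adjusted p = 1.68e-05) and Hoxb1 by 1.86 (adjusted p = 0.0048) on the log2 scale. Cdx1 cells held Nkx1-2 in 60 of 71 cases (84.5%), against 29.3% of other cells. The shares after thinning to 10000 were 33 of 39 (84.6%) and 22.0%, so the pairing was as close at equal depth.

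Cdx2 cells were higher in all 3 genes tested, beside 1.01% of genes tested, namely Nkx1-2 by 2.83 (adjusted p = 5.83e-07), Gbx2 by 2.11 (adjusted p = 1.42e-07) and Hoxb1 by 1.23 (adjusted p = 0.00117). The Hoxb1 call was lost without the block (1.17, adjusted p = 0.0672) and with cells thinned to 2000 transcripts (1.45, adjusted p = 0.0713). Cdx4 cells, compared in 3 libraries, were higher in Cdx2 by 2.32 (adjusted p = 0.00344, but 0.185 without the block), 1 of 5 genes tested and beside 0.414% of genes. Hoxb1 (0.55, adjusted p = 0.516) and Nkx1-2 (0.19) did not pass there. Cdx2 was found in 24 of 25 Cdx4 cells and 24.3% of other cells, or, after thinning to 10000, in 5 of 11 Cdx4 cells (45.5%) and 14.9% of others. The Hoxb1 difference of Cdx4 cells was within the spread between 3 libraries.

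Hoxb1 cells were higher in both genes tested, beside 1.65% of genes tested, Gbx2 by 1.82 (adjusted p = 0.000974) and Nkx1-2 by 1.64 (adjusted p = 0.00551, but 0.0865 with DESeq2 and 0.0553 without the block). Gbx2 cells were higher in Nkx1-2 by 3.09 (adjusted p = 1.26e-08) and Hoxb1 by 1.97 (adjusted p = 1.86e-05) and did not differ beyond the spread in Cdx2 (0.74, adjusted p = 0.264), 2 of 3 genes beside 1.50%. Nkx1-2 cells were higher in Gbx2 by 2.75 (adjusted p = 5.47e-08) and Cdx2 by 1.52 (adjusted p = 0.0119, but 0.131 without the block) and missed the threshold for Hoxb1 (1.13, adjusted p = 0.0535), 2 of 3 genes beside 1.03%. Gbx2 was found in 119 of 165 Nkx1-2 cells (72.1%) and 20.8% of other cells, and after thinning to 10000 in 63.6% and 17.9%. Gbx2 and Nkx1-2 were thus each higher in cells that held the other.

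As a description over the 429 E7.5 cells, which share libraries and depth, log levels centred within each library correlated at Pearson's r of 0.629 between Gbx2 and Nkx1-2, 0.592 between Cdx1 and Nkx1-2 and 0.317 between Cdx2 and Cdx4. Cdx4 showed almost no correlation with Cdx1 (-0.003), Gbx2 (0.003) or Nkx1-2 (-0.005), and a weak one with Hoxb1 (0.125). These values rest on 25 cells with Cdx4 and do not show that Cdx4 lay apart. Cdx1 was held by 36% of Cdx4 cells and 15.3% of other cells, Gbx2 by 64% and 39.1%, and Nkx1-2 by 68% and 36.6%. Hoxb1 was held by 92% and 49.3%. Cdx4 cells were deeper (median 45669 against 29679.5 transcripts). After thinning to 10000, 3 of 11 Cdx4 cells held Cdx1 and 5 held Nkx1-2, against 36 and 94 of 328 others. Gbx2 went the other way, at 3 of 11 against 103 of 328. Among 12014 genes, those most like Hoxb1 were Aldh1a2 (0.647), the main retinoic acid-making enzyme of the early embryo, the homeobox cofactor Meis2 (0.636) and the paraxial mesoderm gene Tbx6 (0.621). Wnt8a (0.547) and Zfp703 (0.503) were among the genes most like Cdx1. Outside the 7 posterior genes, Gbx2 and Nkx1-2 shared their nearest genes Fst (0.613 and 0.592), which encodes follistatin, and Cxx1a (0.595 and 0.550), followed by Foxb1 (0.538) for Gbx2 and Apln (0.543) for Nkx1-2. Cdx2 was most like Alox15 (0.490), Fzd10 (0.408) and Grsf1 (0.376), and Cdx4 most like Klhl5 (0.398), Zfp964 (0.367) and Pdgfrl (0.361).

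Other genes of the posterior programme came from lists. Of 22 WNT, FGF and retinoid genes 19 were tested, 12 higher and 3 lower at E7.5, with a median of 0.77 against 0.03 over all genes, of which 1997 were higher and 1882 lower of 9998. Aldh1a2 (8.10), the WNT enhancer Rspo3 (3.36) and Wnt5a (3.20) were among the higher, and Fgf8 (-2.63), Rara (-1.12) and Rarg (-0.75) were the lower. Of 7 Hox cofactors, partners of HOX proteins on DNA, 6 were tested, 4 were higher (among them Meis1 at 3.40 and Meis2 at 3.38) and 0 lower, with a median of 0.48. Of 12 streak and caudal mesoderm genes 10 were tested, 5 higher and 0 lower, with a median of 2.03, beside the same 20.0% of all genes higher. Of 11 anterior identity genes 3 were tested, with Six3 higher (2.03) and Pou3f1 (-2.24) and Otx2 (-1.43) lower.

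Hoxb1 cells at E7.5 were set against the same lists. Of 12 streak and caudal mesoderm genes 8 were tested, and 7 were higher with Hoxb1 and 0 lower, beside 105 genes higher and 113 lower of 6350, with a median of 1.94 against -0.01 over all genes, among them Tbx6 (3.59), the Notch ligand Dll1 (3.18), Mesp1 (2.33) and T (2.02). Both anterior identity genes tested of 11 were lower, Otx2 by a log2 fold change of -1.80 and Pou3f1 of -1.22. Definitive endoderm markers summed to 7.99 to 356 CPM over libraries in cells with Hoxb1 and 116 to 829 CPM in cells without, and paraxial mesoderm markers to 77.9 to 416 and 15.9 to 179 CPM. Lateral and extraembryonic mesoderm markers were at a median of 378 CPM with Hoxb1 and 113 without, and epiblast and ectoderm markers at 1709 and 3421 CPM. Of these 4 lists, Msgn1 without Hoxb1 was the single marker at 0, and their part in these results was not tested. In Nkx1-2 cells, 4 of 11 WNT, FGF and retinoid genes tested were higher, beside 1.03% of all genes, the transcription factors Sp8 (2.01), Sp5 (1.34) and Etv4 (1.03) and the WNT feedback gene Axin2 (0.95), and Otx2 was lower (-1.74). Otx2 was lower in cells with each of Cdx1 (-2.18), Cdx2 (-1.996), Cdx4 (-4.20) and Gbx2 (-1.35) as well.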

How the data were processed

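The 18 deposited tables hold, per the values, estimated counts of transcripts: the authors turned the number of molecular identifiers seen per gene and cell into expected counts for a pool of 4096 identifiers. Every value came out as a whole identifier number to within 4.09e-12. The submitters' processing notes name bcl2fastq 2.17.1.14 and BWA 0.6.2-r126. Counter, annotation, build and use of strand are not given in the sources used here. Each table has 192 barcodes and 23093 features, of which 74 spike-ins and 22 mitochondrial genes were left out of totals. Of 4 patterns of 96 barcodes, the one holding most of the transcripts was taken as the used set. Cells with at least 2000 nuclear transcripts and libraries with at least 10 such cells were kept, and doublets were not called, since wells held picked or sorted cells. A cell was assigned to a marker class by at least 1 transcript.

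Expected counts were summed per library and class, rounded, and tested with edgeR 4.0.16 (quasi-likelihood, TMM scaling, filterByExpr, limma 3.58.1, R 4.3.3). The filter on low counts keeps a gene with enough transcripts in enough sums, whichever age or class these belong to. A gene low in 1 age or class can therefore enter a test through the other. Marker comparisons used library as a block, at least 3 cells per class and at least 3 libraries. Genes with a Benjamini-Hochberg adjusted p under 0.05 over all genes tested were called. Shares were compared with exact permutation tests after thinning to 2000 transcripts, and DESeq2 1.42.0 was an alternative. Levels are per 1000000 nuclear transcripts, without TMM. The fit was tested on simulated data. The genes named were all 7 posterior genes, up to 4 called genes of each list and direction by smallest p, and the 3 genes most like each posterior gene. The genes and lists were chosen with earlier results of these data known, and the octamer and the depth of 10000 after the data had been examined. Intervals and limits cover counting error only. Results of 2 genes of the lists, and the counts of 1 list, are not reported here.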

Additional observations from a re-analysis of the deposited data

Results flagged for a closer look

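Single libraries stood far from the rest of their group in 9 of 23 groups of 4 to 10 libraries examined with Dixon's gap test. The test flags about 1 group in 20 by chance for normally distributed values, and this rate does not hold for groups mostly at 0, where 1 library with any transcript is always picked out, as for the 3 Cdx4 groups. At E6.75, Cdx1 was highest in replicate 2_13, at 2.00 CPM against at most 0.28 in the others, and Cdx4 in replicate 1_11, at 0.29 CPM from 1 transcript against 0. Among E7.5 cells with T and Sox2, Cdx1 reached 121 CPM in replicate 4, with the next library at 57.1. Among cells with Sox2 only, Nkx1-2 reached 101 CPM in replicate 6, with the next at 39.5, and Cdx4 reached 3.82 CPM in replicate 7 with the others at 0. In cells with neither, replicate 4 was highest in Cdx1 (54.9 CPM, next 9.34) and Gbx2 (86.3 CPM, next 22.2), replicate 2 in Nkx1-2 (84.1 CPM, next 23.5) and replicate 12 in Cdx4 (22.2 CPM, others 0).

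Barcodes outside the used sets also held posterior transcripts at E7.5. Those 1152 barcodes held 119472 nuclear transcripts in all, among them 9 of Hoxb1, 8 of Nkx1-2 and 6 of Gbx2. Used barcodes under the depth limit, 723 at E7.5, held another 29 transcripts of Hoxb1, 16 of Gbx2, 12 of Cdx2, 12 of Nkx1-2, 2 of Cdx4 and 1 of Cdx1.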

How the results depend on the processing

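Among 355 values of single posterior genes under another setting, 328 kept their direction and side of the threshold, 10 fell short of it, 16 newly passed and 1 reversed, the Nkx1-2 difference by Foxa2, at -0.35 where 2 Foxa2 transcripts were required. With 1 library left out, 427 of 437 values kept both and 10 newly passed. The 5 log2 fold changes between the ages held under each setting that tested them, Hoxb1 between 6.04 and 7.82 and Cdx2 between 2.58 and 4.80.

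Thinning each cell to 2000 transcripts left 2834 of 9998 genes tested between the ages and 514 of 6231 by T, so that few posterior genes were still tested. The number called higher became 1 between the ages in place of 5, and 0 by T (3), Mesp1 (1), Hoxb1 (2), Cdx2 (3), Gbx2 (2), Nkx1-2 (2) and between the ages with T (4) or without T (1). With thinning, the number called lower became 0 by Sox2 (1) and 1 by Foxa2 (0). Too few libraries were left to run it by Cdx1, by Cdx4 and between T and Sox2 classes. With no filter on low counts, 6 genes were higher by T, 2 by Mesp1 and 2 by Sox2 (main 0), and 2 were lower by Sox2. Standard errors of Hoxb1 were smaller in these unfiltered fits, so their calls are not comparable with the main ones. Over all genes, 84 were higher and 46 lower by T in the main fit, 286 and 84 with no filter, 55 and 15 without the block and 3 and 3 with thinning, and between the ages 1997 and 1882, or 299 and 297 with thinning. Without library as a block the calls fell to 1 by Hoxb1, 1 by Nkx1-2, 0 by Cdx4 and 0 lower by Sox2, and DESeq2 gave 1 by Hoxb1. The edgeR calls of Gbx2 by T (adjusted p = 0.201) and of Hoxb1 by Cdx2 (adjusted p = 0.0672) were also lost without the block. Requiring 2 transcripts of the marker gave 1 gene lower by Mesp1 and 1 by Foxa2 (main 0). Without extraembryonic marker cells 1 gene was higher by Sox2, and with 1 library left out the number ran from 0 to 2, rising without replicate 4 or 11. Between the ages in cells without T, 3 were higher with a limit of 4000 transcripts and 2 with the E6.75 libraries whose titles begin with 2. The number of genes whose share of cells differed (main 2) was 6 without thinning, 5 at 4000 transcripts, 4 at 10000 (chosen after the data were seen) and 0 where 2 transcripts were required, and ran from 2 to 4 with 1 library left out. Where no cause is named, the cause was not tested. Hoxb2 and Cdx4, and all 7 genes in the E6.75 marker classes, had too few transcripts to pass the filter on low counts in the main fits.

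Libraries of the 2 ages could not be paired, because they came from different embryos collected separately. Marker comparisons within an age paired the classes of each library through the block.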
